A study of Mus musculus with 8 samples.

Results

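The tubulin isoforms described here are 10 genes, 5 of alpha-tubulin (Tuba1a, Tuba1b, Tuba1c, Tuba4a and Tuba8) and 5 of beta-tubulin (Tubb2a, Tubb2b, Tubb4b, Tubb5 and Tubb6). They were taken by gene name from a deposited table of 54532 genes and followed over all 8 libraries of mouse heart RNA. The groups were wild-type mice after TAC, wild-type mice after sham surgery, mice labelled Piezo1-Cko after TAC, and mice labelled Piezo1-Cko after sham surgery, with 2 libraries each. All were labelled as strain C57BL/6. TAC stands for transverse aortic constriction, in which the aorta is narrowed so that the left ventricle works against a raised pressure, and sham surgery leaves the aorta open. Piezo1 encodes a cation channel opened by membrane tension, and the labels name neither the cells nor the exons that the Cko allele affects.

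Microtubules are hollow polymers of alpha- and beta-tubulin dimers. Each chain is encoded by several genes, called isotypes, whose proteins are very alike in the body of the molecule and differ mainly in a short acidic tail at the carboxyl end. That tail is where enzymes remove or restore a final tyrosine and add or trim glutamate and glycine chains. In heart muscle cells microtubules resist compression during contraction and carry mRNA and proteins, and a denser, more detyrosinated network is a known feature of the pressure-loaded heart.

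The last 45 bases of the coding sequence, stop codon included, are shown for 8 of the genes because they hold the tail in which the isotypes differ. They are from GENCODE release M21 transcripts (GRCm38), 5′ to 3′, with the last codon before the stop in capitals.
Tuba1b: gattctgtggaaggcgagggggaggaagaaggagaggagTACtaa
Tuba1c: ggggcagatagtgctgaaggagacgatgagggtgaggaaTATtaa
Tuba4a: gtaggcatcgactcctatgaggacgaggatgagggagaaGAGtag
Tuba8: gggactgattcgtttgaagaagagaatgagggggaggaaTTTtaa
Tubb2a: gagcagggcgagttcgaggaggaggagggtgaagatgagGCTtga
Tubb2b: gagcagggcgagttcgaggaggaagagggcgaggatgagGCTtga
Tubb4b: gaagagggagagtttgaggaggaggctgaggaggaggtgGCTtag
Tubb5: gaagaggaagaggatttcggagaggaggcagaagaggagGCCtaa

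Tuba1a, Tuba1b and Tuba1c end in a tyrosine codon (TAC or TAT, where TAC is a codon and not the surgery), the residue that the detyrosination enzymes remove. Tuba4a ends in GAG, a glutamate codon, and so encodes no final tyrosine, and Tuba8 ends in TTT, a phenylalanine codon. The 4 beta genes shown end in alanine codons. The tails of Tubb2a and Tubb2b were identical at 42 of 45 bases.

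The same likeness limits how reads can be assigned. Over the whole coding sequence Tuba1a and Tuba1b were 98.3% identical, Tuba1b and Tuba1c 97.9%, Tuba1a and Tuba1c 97.1%, and Tubb2a and Tubb2b 96.5%. Of the 100-base windows along the transcript, 73.0% of those of Tuba1b, 65.9% of Tuba1a, 53.4% of Tuba1c, 36.9% of Tubb2a, 30.6% of Tubb4b and 27.8% of Tubb2b also occurred in another gene, among them paralogs and pseudogenes. Tubb5 and Tubb6 shared no such window. How the authors counted reads with several matches is not given in the sources used here, so the split among Tuba1a, Tuba1b and Tuba1c, and between Tubb2a and Tubb2b, is uncertain. For the same reason the levels of genes with many shared windows against the other isotypes, and so the shares and order of levels below, are uncertain. Tuba4a overlaps Stk16 on the opposite strand over 37.3% of its exon bases, and Tuba8 overlaps the antisense gene Gm15856 over 16.3%. On the same strand, the protein-coding gene Gm49450, at 0 to 0.515 FPKM, shares 26.2% of the exon bases of Tuba1a and 22.7% of those of Tuba1b. Whether counting used strand is not stated. Stk16 lay at 6.63 to 10.05 FPKM and Gm15856 at 0 to 0.393 FPKM.

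Levels are given as FPKM, fragments per kilobase of gene length scaled to library size, as the authors deposited them, and the recovered reads ranged from 15574769 to 17313084 per library. All 10 genes passed the filter on low values, as did 13928 genes in all. Fold changes were taken from log2(FPKM + 0.5) and so are understated for low genes. A gene passed at a Benjamini-Hochberg adjusted p under 0.05 in limma over all tested genes, two-sided. Separate animals per library are not stated in the labels, and a p-value here reflects no more than the spread among these libraries, which could be technical. Piezo1 was at 3.83 and 3.23 FPKM in Piezo1-Cko sham hearts, against 2.35 and 3.09 FPKM in wild-type sham hearts (limma adjusted p = 0.774). After TAC it was at 5.24 and 3.89 FPKM in Piezo1-Cko hearts, against 5.38 and 5.83 FPKM in wild-type hearts (limma adjusted p = 0.65). Piezo1-Cko values were thus higher under sham and lower under TAC, neither difference passed, and the gene total does not mark the genotype labels in 1 direction. The 8 cardiomyocyte markers summed to 10108 to 12591 FPKM in the TAC libraries, against 16742 to 18424 FPKM in the sham libraries, and none was at 0. Wild-type TAC replicate 1 stood apart, with 6 B and plasma cell markers at a sum of 306 FPKM, against 11.5 to 33.7 FPKM in the other 7 libraries. Wild-type sham replicate 1 had the highest adipocyte marker sum, 3.65 FPKM against at most 0.462 FPKM elsewhere. Calls that were lost without both of these libraries are named with the results.

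Among the alpha genes, Tuba4a and Tuba1b were the most abundant. Tuba4a (ENSMUSG00000026202, chr1:75214228-75219865, minus strand, GRCm38 as in the table), a muscle-rich isotype, was at 66.3 and 172 FPKM in wild-type TAC hearts, against 202 and 181 FPKM in wild-type sham hearts. In Piezo1-Cko hearts it was at 151 and 141 FPKM after TAC, against 167 and 200 FPKM after sham. Within each genotype both TAC libraries lay below both sham libraries, and wild-type TAC replicate 1 was by far the lowest. The averaged change of both genotypes was a log2 fold change of -0.58 (SE 0.27, 95% interval -1.21 to 0.05, adjusted p = 0.151) and did not pass. Without wild-type TAC replicate 1 it was -0.24 (adjusted p = 0.205) and without replicate 2 of that group -0.92 (adjusted p = 0.00551), so these 2 libraries decide it. Without both wild-type TAC replicate 1 and wild-type sham replicate 1 it was -0.20 (adjusted p = 0.325).

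Tuba1b (ENSMUSG00000023004, chr15:98931425-98934565, minus strand), the widely expressed alpha isotype of most tissues, went the other way. It was at 109 and 118 FPKM in wild-type TAC hearts, against 85.9 and 88.9 FPKM in wild-type sham hearts. In Piezo1-Cko hearts it was at 173 and 123 FPKM after TAC, against 86.2 and 88.3 FPKM after sham. The 4 TAC libraries all lay above the 4 sham libraries, which stood close together. Averaged over genotypes Tuba1b rose 1.47-fold with a log2 fold change of 0.56 (SE 0.12, limma adjusted p = 0.0176). This call was lost without Piezo1-Cko sham replicate 1 or 2 (adjusted p = 0.0629 to 0.0698).

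Tuba1c (ENSMUSG00000043091, chr15:99029891-99038110, plus strand), also ending in a tyrosine codon, was lower in level. It was at 21.3 and 20.1 FPKM in wild-type TAC hearts, against 8.09 and 15.0 FPKM in wild-type sham hearts, and at 23.55 and 17.3 FPKM in Piezo1-Cko TAC hearts, against 11.7 and 11.2 FPKM in Piezo1-Cko sham hearts. All TAC libraries again lay above all sham libraries. Averaged, it rose by 0.83 on the log2 scale (SE 0.19, adjusted p = 0.0210), a call lost without wild-type TAC replicate 1, Piezo1-Cko TAC replicate 1, or either Piezo1-Cko sham library (adjusted p = 0.0532 to 0.0711).

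Tuba1a (ENSMUSG00000072235, chr15:98949837-98953703, minus strand), the isotype prominent in developing neurons, did not separate the surgeries. It was at 60.7 and 65.5 FPKM in wild-type TAC hearts, against 46.9 and 66.8 FPKM in wild-type sham hearts, and at 84.7 and 66.1 FPKM in Piezo1-Cko TAC hearts, against 67.5 and 58.0 FPKM in Piezo1-Cko sham hearts. The averaged log2 fold change was 0.21 (95% interval -0.12 to 0.55, adjusted p = 0.301). Tuba8 (ENSMUSG00000030137, chr6:121210696-121226854, plus strand), a more divergent alpha isotype, ran from 29.2 to 55.0 FPKM over the 4 TAC libraries, against 51.7 to 66.0 FPKM over the 4 sham libraries. Its ranges overlapped through wild-type TAC replicate 2 alone, and its averaged log2 fold change was -0.56 (95% interval -1.02 to -0.10, adjusted p = 0.0749). It passed without wild-type TAC replicate 2 (log2 fold change -0.79, adjusted p = 0.00919), and was at -0.33 without replicate 1 of that group (adjusted p = 0.114).

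Tubb5 (ENSMUSG00000001525, chr17:35833921-35838306, minus strand), a widely expressed beta isotype that dividing cells use in the spindle, gave the smallest adjusted p of the 10 genes. It was at 84.2 and 76.5 FPKM in wild-type TAC hearts, against 46.7 and 47.5 FPKM in wild-type sham hearts. In Piezo1-Cko hearts it was at 97.5 and 80.0 FPKM after TAC, against 50.6 and 56.3 FPKM after sham. The lowest TAC library stood well above the highest sham library. Tubb5 rose by 0.76 on the log2 scale in wild type (SE 0.14, adjusted p = 0.0233) and by 0.74 averaged over genotypes (SE 0.10, adjusted p = 0.00477), or 1.67-fold. The averaged call held in all 19 alternatives, with log2 fold changes of 0.67 to 0.96.

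Tubb6 (ENSMUSG00000001473, chr18:67390717-67402748, plus strand), a beta isotype known to rise in regenerating and dystrophic skeletal muscle, also separated the surgeries. It was at 32.5 and 37.0 FPKM in wild-type TAC hearts, against 19.1 and 20.98 FPKM in wild-type sham hearts, and at 50.01 and 33.9 FPKM in Piezo1-Cko TAC hearts, against 21.8 and 21.5 FPKM in Piezo1-Cko sham hearts. The sham libraries were close together and the TAC libraries spread above them. Tubb6 rose by 0.78 on the log2 scale in wild type (adjusted p = 0.0373) and by 0.85 averaged (SE 0.13, adjusted p = 0.00683), and its averaged call held in all 19 alternatives.

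Tubb2b (ENSMUSG00000045136, chr13:34126748-34130466, minus strand), an isotype best known from neurons, was the least abundant member and had the largest fold change. It was at 5.79 and 4.79 FPKM in wild-type TAC hearts, against 1.81 and 2.40 FPKM in wild-type sham hearts, and at 7.02 and 4.21 FPKM in Piezo1-Cko TAC hearts, against 2.42 and 1.59 FPKM in Piezo1-Cko sham hearts, on 56 to 297 reads per library. No sham library reached the lowest TAC library. It rose 2.23-fold in wild type (log2 fold change 1.16, adjusted p = 0.0344) and 2.32-fold averaged (log2 fold change 1.21, adjusted p = 0.00678), the averaged call holding in all 19 alternatives. Its neighbour and near copy Tubb2a (ENSMUSG00000058672, chr13:34074274-34078007, minus strand) ran from 29.0 to 48.7 FPKM over the TAC libraries, against 23.3 to 30.8 FPKM over the sham libraries. Those ranges overlapped, and the averaged log2 fold change of Tubb2a was 0.45 (95% interval 0.03 to 0.88, adjusted p = 0.107). It passed without Piezo1-Cko TAC replicate 2 (log2 fold change 0.64, adjusted p = 0.0252), and without replicate 1 of that group it was at 0.27 (adjusted p = 0.26).

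Tubb4b (ENSMUSG00000036752, chr2:25222160-25224702, minus strand), a beta isotype abundant in heart and in cilia, was the main beta gene of every library. It was at 96.1 and 149 FPKM in wild-type TAC hearts, against 136 and 159 FPKM in wild-type sham hearts, and at 138 and 134 FPKM in Piezo1-Cko TAC hearts, against 151 and 160 FPKM in Piezo1-Cko sham hearts. Only the Piezo1-Cko libraries separated by surgery, and the averaged log2 fold change was -0.24 (95% interval -0.59 to 0.10, adjusted p = 0.256). Without wild-type TAC replicate 2 it was -0.40 and passed (adjusted p = 0.0432), and without replicate 1 of that group it was -0.09.

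**Figure D1:**
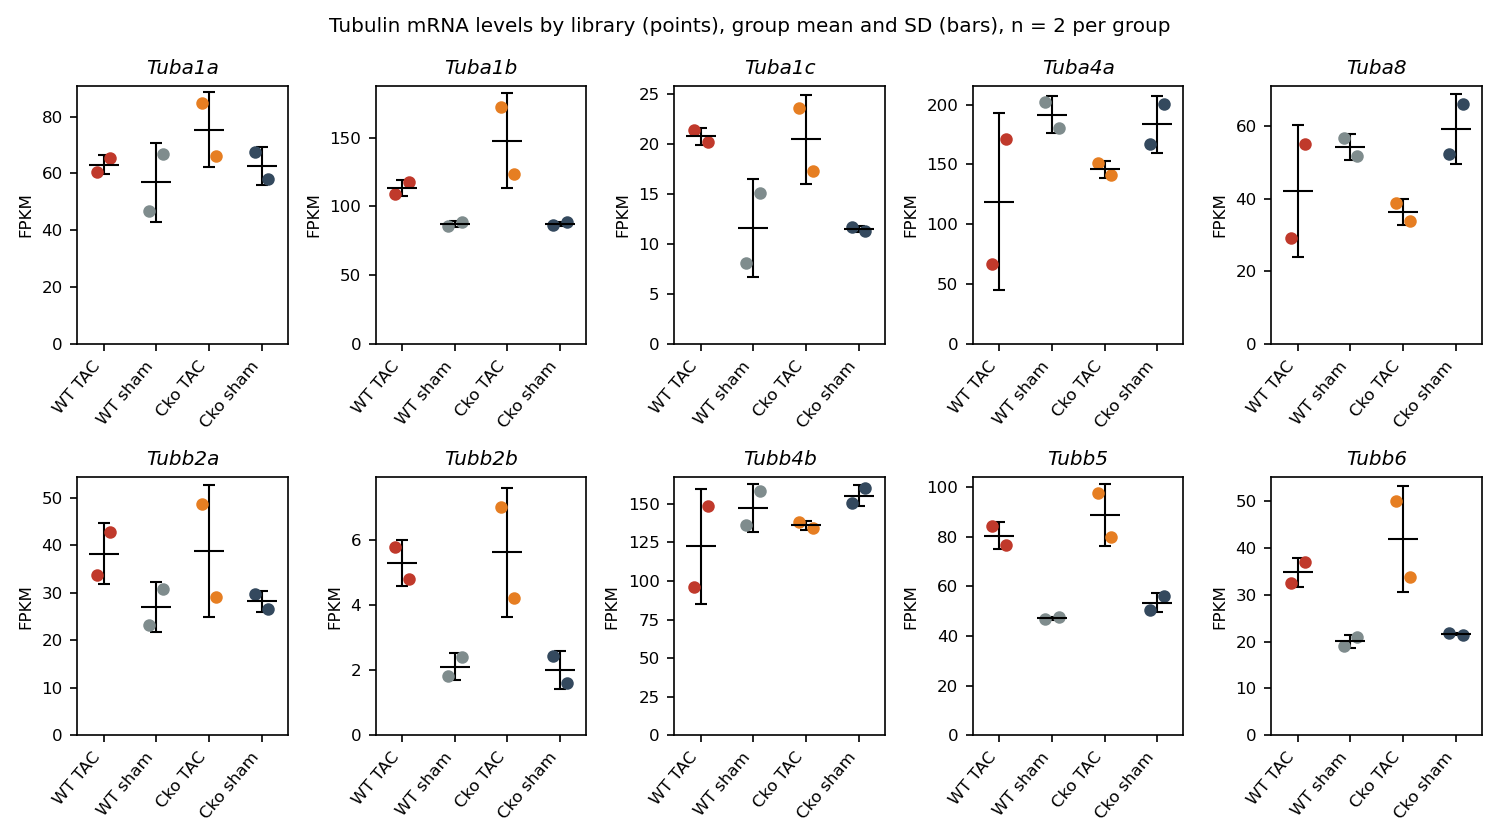
FPKM of the 10 tubulin genes in each library (points), with the group mean and SD (bars, n = 2), for wild-type TAC, wild-type sham, Piezo1-Cko TAC and Piezo1-Cko sham hearts. For Tuba1b, Tuba1c, Tubb2b, Tubb5 and Tubb6 the 4 TAC points lie above the 4 sham points, and for Tuba4a, Tuba8 and Tubb4b wild-type TAC replicate 1 is the lowest point.

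TAC was set against sham to ask which isotypes the surgery changed. In wild type 3 of the 10 genes rose (Tubb2b, Tubb5 and Tubb6), none fell and 7 did not pass, where 13.2% of all tested genes passed, 5.57% as higher and 7.65% as lower. The median log2 fold change of the 10 genes was 0.43, against 0.01 over all tested genes. These 3 calls did not hold without wild-type sham replicate 1, wild-type TAC replicate 1 or either Piezo1-Cko sham library (0 of 10 passed in each). Without wild-type sham replicate 2 only 1 gene passed, Tuba1c (adjusted p = 0.0464), and without wild-type TAC replicate 2 the calls of Tubb2b and Tubb6 were lost while Tuba4a (log2 fold change -1.52, adjusted p = 0.00968) and Tuba8 (-0.88, adjusted p = 0.0395) passed as lower. Leaving out 1 library also changed the passing share of all genes, which was 3.55% without wild-type sham replicate 1 and 0.531% without wild-type TAC replicate 1.

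In Piezo1-Cko hearts none of the 10 genes passed in limma, where 1.49% of all tested genes did, 0.948% as higher and 0.546% as lower. Tubb5 came nearest (log2 fold change 0.72, adjusted p = 0.0535), followed by Tubb6 (0.91, adjusted p = 0.0571), Tubb2b (1.27, adjusted p = 0.0603) and Tuba1b (0.74, adjusted p = 0.0736). In this comparison 6 of the 10 had an unadjusted p under 0.05, as did 21.8% of all tested genes, and limma-voom on the recovered reads passed 3 of the 10 and 2.80% of all. Without Piezo1-Cko TAC replicate 2, which lay below replicate 1 in all 10 genes, 4 passed (Tuba1b, Tubb2b, Tubb5 and Tubb6, adjusted p = 0.0318 to 0.0464), beside 2.71% of all tested genes. The median log2 fold change of the 10 was 0.57, against -0.000912 over all tested genes.

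The average of both genotypes uses all 8 libraries, so it is not independent of those comparisons. There 5 of the 10 genes rose (Tuba1b, Tuba1c, Tubb2b, Tubb5 and Tubb6), none fell and 5 did not pass, where 25.4% of all tested genes passed, 11.9% as higher and 13.5% as lower. In FPKM, the same 5 genes had all 4 TAC libraries above all 4 sham libraries, and the ranges of the other 5 overlapped. Among all tested genes 27.7% did not overlap, with 13.1% higher and 14.6% lower in TAC. The calls of Tubb2b, Tubb5 and Tubb6 remained without both wild-type TAC replicate 1 and wild-type sham replicate 1 (adjusted p = 0.0295 to 0.0406), while Tuba1b and Tuba1c lost theirs.

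**Figure D2:**
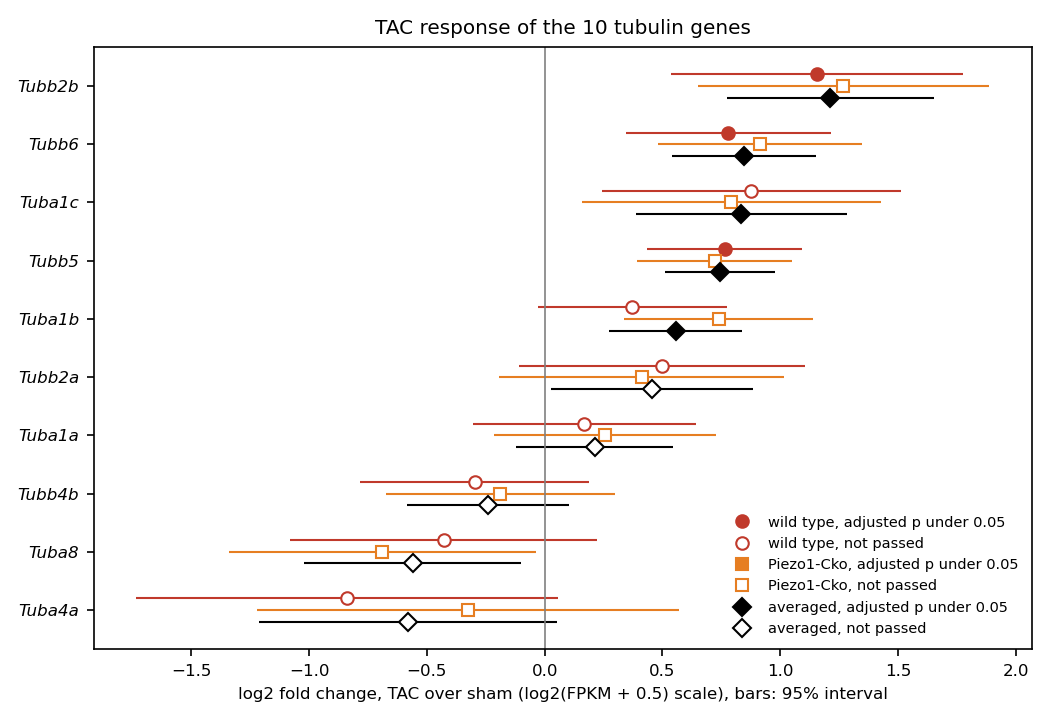
Log2 fold change of TAC over sham for each tubulin gene in wild type (circles), in Piezo1-Cko (squares) and averaged (diamonds), with 95% intervals, and filled symbols where the adjusted p was under 0.05. Tubb2b, Tubb6, Tuba1c, Tubb5, Tuba1b, Tubb2a and Tuba1a lie to the right of 0 in every comparison, and Tubb4b, Tuba8 and Tuba4a to the left.

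The deposited scaling fixes where 0 lies on this axis. Scaled to the total of recovered reads instead, an alternative chosen after seeing the data, the median of all genes in the averaged comparison moved to 0.19, and 79.1% of all calls were higher, against 46.8% with the deposited scaling. Scaled to total reads outside mitochondrial genes the median was 0.15 and 73.0% of calls were higher. The 5 genes that rose also passed as higher under both scalings, as did Tubb2a (adjusted p = 0.0318 and 0.0380), and log2 fold changes under them are to be read against those medians. Tubb4b in Piezo1-Cko turned from -0.19 to 0.02 when scaled to total recovered reads.

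Shares among isotypes do not depend on that scaling. Summed over the 5 alpha genes, FPKM was 392.1 ± 79.2 in TAC and 403 ± 16.3 in sham libraries (SD, n = 4 each), and over the 5 beta genes 296 ± 38.2 in TAC and 252 ± 17.3 in sham. Unlike the shares, these sums do depend on the scaling. With the deposited scaling both pairs of ranges overlapped, the beta pair through wild-type TAC replicate 1 alone (252.5 FPKM, against at most 266 FPKM in sham). In Piezo1-Cko hearts the beta sums were 342 and 281 FPKM after TAC, against 255 and 266 FPKM after sham, with no overlap. The ratio of alpha to beta FPKM was 1.14 to 1.39 in TAC and 1.51 to 1.76 in sham libraries, with no overlap. By design these shares carry no test. Of the 10 shares, 8 did not overlap between the 4 TAC and the 4 sham libraries, and those of Tuba1a and Tubb2a did. In FPKM, 27.7% of all tested genes did not overlap. Shares within alpha, and within beta, have a fixed total, so a fall in 1 raises others and the 8 are not separate observations.

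Among the alpha genes, Tuba4a gave 23.1% and 39.9% of alpha FPKM in wild-type TAC hearts, against 50.6% and 44.8% in wild-type sham hearts. In Piezo1-Cko hearts it gave 32.0% and 37.0% after TAC, against 43.4% and 47.3% after sham. Tuba1b gave 38.1% and 27.4% in wild-type TAC hearts, against 21.5% and 22.1% in wild-type sham hearts, and 36.7% and 32.3% in Piezo1-Cko TAC hearts, against 22.4% and 20.8% in Piezo1-Cko sham hearts. In FPKM Tuba4a thus led the alpha genes in all 4 sham libraries, and Tuba1b exceeded it in replicate 1 of both TAC groups. FPKM divides by gene length (3701 bases for Tuba4a and 1875 for Tuba1b), so this order rests on the lengths used. Tuba8 took 8.26% to 12.8% in TAC and 12.8% to 15.6% in sham libraries, a separation smaller than the rounding that was lost when reads replaced FPKM. Taking the genes with a tyrosine codon together (Tuba1a, Tuba1b and Tuba1c), their share of alpha FPKM was 66.7% and 47.3% in wild-type TAC hearts, against 35.2% and 42.4% in wild-type sham hearts. In Piezo1-Cko hearts it was 59.7% and 54.2% after TAC, against 43.0% and 37.2% after sham. As shares of alpha reads, these 3 genes held 53.8% and 33.6% in wild-type TAC hearts, against 23.1% and 29.1% in wild-type sham hearts. In Piezo1-Cko hearts they held 45.1% and 39.5% of alpha reads after TAC, against 29.7% and 24.9% after sham. All TAC libraries exceeded all sham libraries by either measure, while the level of the share depended on the measure. Reads moved among these 3 genes by the counting would stay within the sum of reads. Their FPKM would change with gene length, which ran from 1803 bases for Tuba1a to 2287 for Tuba1c. Reads dropped, or given to Gm49450 or to pseudogenes, would stay in neither sum.

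Among the beta genes, Tubb4b gave 38.1% to 48.0% of beta FPKM in the TAC libraries, against 59.0% to 60.9% in the sham libraries. Tubb5 gave 24.7% to 33.4% in TAC and 18.2% to 21.1% in sham, and Tubb6 12.0% to 14.6% in TAC and 8.06% to 8.53% in sham. The sham values were tight, and the TAC values scattered away from them in 1 direction. Tubb2b stayed a minor part, at 1.498% to 2.29% in TAC and 0.60% to 0.947% in sham libraries.

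**Figure D3:**
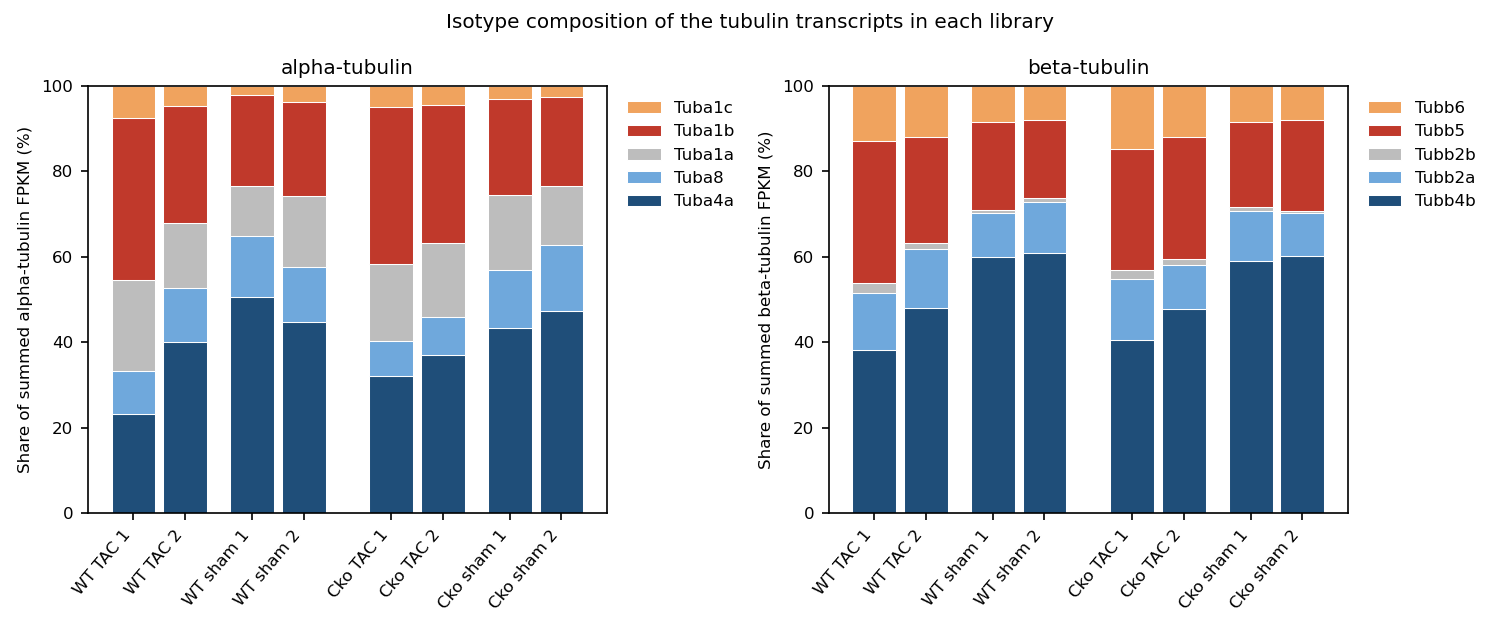
Share of each gene in the summed alpha-tubulin FPKM (left) and beta-tubulin FPKM (right), in percent, with 1 bar per library. The dark blue parts, Tuba4a and Tubb4b, are smaller in every TAC library than in every sham library, and the red parts, Tuba1b and Tubb5, are larger.

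The order of levels differed accordingly. In the TAC libraries Tuba4a (132 FPKM on average), Tuba1b (131) and Tubb4b (129) had overlapping ranges, followed by Tubb5 (84.6) and Tuba1a (69.2). In the sham libraries Tuba4a (188 FPKM), Tubb4b (151) and Tuba1b (87.3) had ranges that did not overlap, followed by Tuba1a (59.8), Tuba8 (56.7) and Tubb5 (50.3), neighbours that overlapped. Tuba1c and Tubb2b came last in both. Like the shares, this order rests on the gene lengths used for FPKM.

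Genotype was compared within each surgery to ask whether the Piezo1-Cko label changed tubulin levels. None of the 10 genes passed under sham, where 0.0215% of all tested genes did (0.0144% as higher), or under TAC, where 0% did. In both, none had an unadjusted p under 0.05 and limma-voom passed none. Under sham the log2 fold changes of Piezo1-Cko over wild type ran from -0.06 to 0.18, and the smallest p was that of Tubb5 (0.18, 95% interval -0.15 to 0.51, adjusted p = 0.859). Under TAC they ran from -0.14 to 0.45, and the smallest p was that of Tuba1b (0.36, 95% interval -0.04 to 0.77, adjusted p = 0.569). The widest interval under TAC was that of Tuba4a, from -0.45 to 1.34.

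The difference between the genotypes' responses to TAC was tested as an interaction. None of the 10 genes passed in limma (0.00718% of all tested genes did), none had an unadjusted p under 0.05, and limma-voom passed none. The smallest p was that of Tuba1b, whose response was 0.37 larger in Piezo1-Cko (95% interval -0.20 to 0.93, adjusted p = 0.911). For Tubb5 the difference was -0.04 (95% interval -0.51 to 0.42), and for Tuba4a 0.51 (95% interval -0.75 to 1.78). That 3 genes passed in wild type and none in Piezo1-Cko is therefore not a difference shown by test.

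Markers of some other cell populations differed with the surgery too. Markers of dividing cells (such as Mki67 and Top2a) were higher in 10 of 10 in the averaged comparison, and summed to 34.6 to 56.6 FPKM in wild-type TAC, 3.54 to 4.26 in wild-type sham, 30.4 to 45.5 in Piezo1-Cko TAC and 7.31 to 7.66 in Piezo1-Cko sham hearts. Of 8 macrophage markers all 8 were higher, with sums of 660 to 685 FPKM in wild-type TAC, 434 to 472 in wild-type sham, 785 to 1039 in Piezo1-Cko TAC and 499 to 501 in Piezo1-Cko sham hearts. Of 8 fibroblast markers 5 were higher (sums of 426 to 896 FPKM in TAC and 191 to 326 in sham libraries), and of 8 cardiomyocyte markers 5 were lower. No marker of these 4 lists was at 0 in all libraries. Among all tested genes 11.9% passed as higher and 13.5% as lower in that comparison. None of 6 endothelial and none of 6 mural markers passed there. The part of any of these cells in the tubulin result was not tested. In bulk tissue a change in the number of cells of a type cannot be told apart from a change in RNA per cell.

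Promoter sequence is shown for a pair of genes that rose, Tubb5 and Tuba1c, and for the abundant Tubb4b, which did not pass. Each is the 250 bases before the RefSeq transcript start (GRCm38.p6), on the gene's strand, with CCAAT and GGGCGG in capitals on either strand (ATTGG and CCGCCC). The positions are chr17:35838302-35838551 (minus), chr15:99029641-99029890 (plus) and chr2:25224703-25224952 (minus).
Tubb5: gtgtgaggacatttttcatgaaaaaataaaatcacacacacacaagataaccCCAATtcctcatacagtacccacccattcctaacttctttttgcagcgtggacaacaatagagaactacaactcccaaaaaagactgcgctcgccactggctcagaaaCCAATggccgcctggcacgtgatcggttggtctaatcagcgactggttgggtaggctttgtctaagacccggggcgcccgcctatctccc
Tuba1c: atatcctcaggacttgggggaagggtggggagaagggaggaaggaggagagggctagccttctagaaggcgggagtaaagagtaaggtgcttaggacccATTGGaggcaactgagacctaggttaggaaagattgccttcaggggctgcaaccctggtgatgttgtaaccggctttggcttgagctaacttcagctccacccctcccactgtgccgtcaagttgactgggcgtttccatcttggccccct
Tubb4b: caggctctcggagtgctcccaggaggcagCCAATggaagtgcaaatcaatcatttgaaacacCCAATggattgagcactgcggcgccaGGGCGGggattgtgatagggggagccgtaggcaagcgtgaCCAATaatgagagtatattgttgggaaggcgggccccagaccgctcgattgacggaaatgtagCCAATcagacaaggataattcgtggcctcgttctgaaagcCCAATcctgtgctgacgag

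CCAAT, the core of the box bound by NF-Y, occurred 2 times before Tubb5, 1 time before Tuba1c and 5 times before Tubb4b. It was in 4 of the 8 tubulin genes that the table holds (Tuba1a, Tuba1c, Tubb4b and Tubb5), and in 33.8% of all 32851 windows of this length. GGGCGG, the core of a GC box, was in 5 of the 8 and in 32.7% of all windows, and TATAAA in 1 of the 8 (Tubb2a) and in 12.4%. CCAAT was thus present in genes that rose and in genes that did not.

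Of the 10 other tubulin genes, 5 were tested and 1 passed in the averaged comparison. Tubb3, the beta isotype used as a neuronal marker, was at 4.40, 2.73, 5.75 and 3.16 FPKM in the TAC libraries, against 2.03, 0.604, 1.36 and 0.874 FPKM in the sham libraries (wild type first in both). It rose by 1.42 on the log2 scale (SE 0.31, adjusted p = 0.0180), a call lost without Piezo1-Cko sham replicate 2 or Piezo1-Cko TAC replicate 1 (adjusted p = 0.0615 to 0.0661). Of 7 tested neuron and Schwann cell markers none was higher and 1 was lower, with sums of 2.48 to 5.52 FPKM in TAC and 7.01 to 11.3 FPKM in sham libraries. Tubb4a, Tubg1, Tubg2 and Tubd1 were tested and did not pass, Tuba3b, Tubal3, Tubb1 and Tube1 lay below the filter, and Tuba3a was at 0 in all 8 libraries.

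Newly made tubulin is folded by prefoldin and the chaperonin CCT before cofactors join the chains into a dimer. Of 14 genes of prefoldin and CCT, 4 fell and none rose in the averaged comparison, and the median log2 fold change was -0.06. Of all tested genes 25.4% passed there, 11.9% as higher and 13.5% as lower, and the counts of this and the following lists are to be read against those shares, to which 4 of 14 is near. The prefoldin subunit Pfdn5 was at 66.6 to 90.8 FPKM in TAC and 117 to 136 FPKM in sham libraries and fell by 0.76 on the log2 scale (adjusted p = 0.00468). Pfdn6 was at 24.2 to 42.4 FPKM in TAC and 53.8 to 62.5 FPKM in sham libraries and fell by 0.80 (adjusted p = 0.00641). Both sets of libraries stood clear of each other, opposite in direction to Tubb5 and Tubb6. Pfdn2 fell by 0.38 (adjusted p = 0.0205) and the CCT subunit Cct7 by 0.33 (adjusted p = 0.0406). Of the 7 cofactor genes, Arl2, a small GTPase that works with them, fell by 0.52 (adjusted p = 0.0225) and the other 6 did not pass. Ttc5 and Scaper, which act in the decay of tubulin mRNA when free tubulin is in excess, did not pass, with log2 fold changes of 0.01 and 0.09.

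The final tyrosine of alpha-tubulin is removed by a vasohibin bound to Svbp and put back by the ligase Ttl. Vash1, one of the vasohibins, was at 8.71 and 8.98 FPKM in wild-type TAC hearts, against 1.95 and 2.49 FPKM in wild-type sham hearts, and at 8.81 and 5.19 FPKM in Piezo1-Cko TAC hearts, against 5.20 and 3.47 FPKM in Piezo1-Cko sham hearts. The wild-type groups stood apart, and the Piezo1-Cko groups overlapped by the width of 1 pair of nearly equal libraries. Vash1 rose by 1.79 on the log2 scale in wild type (limma adjusted p = 0.0159). In Piezo1-Cko its rise of 0.61 did not pass (limma adjusted p = 0.231). The difference between the genotypes' responses did not pass (limma interaction -1.17, unadjusted p = 0.0151, adjusted p = 0.911). Among all tested genes 4.77% had an unadjusted interaction p under 0.05. Averaged, Vash1 rose 1.20 on the log2 scale (SE 0.19, adjusted p = 0.00687). Svbp at 22.7 to 31.7 FPKM and Ttl at 5.26 to 7.64 FPKM over all 8 libraries did not pass (log2 fold changes 0.09 and 0.14), and Vash2 lay below the filter.

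Side chains of glutamate or glycine are built on the tubulin tails by ligases of the TTLL family, and 7 of 12 were tested. Ttll1, a subunit of a polyglutamylase complex, was at 6.43 and 10.4 FPKM in wild-type TAC hearts, against 34.9 and 37.3 FPKM in wild-type sham hearts, and at 6.76 and 11.1 FPKM in Piezo1-Cko TAC hearts, against 27.3 and 27.7 FPKM in Piezo1-Cko sham hearts. Every TAC library lay far below every sham library. Ttll1 fell by 1.84 on the log2 scale (SE 0.19, adjusted p = 0.00288), while Ttll11 rose by 0.51 (adjusted p = 0.0231) and Ttll7 by 0.49 (adjusted p = 0.0389) from far lower levels, at most 1.86 FPKM. Neither of the 2 tested side-chain peptidases passed (Agtpbp1 -0.31, adjusted p = 0.0853, and Agbl5 0.03). None of 3 acetylation genes passed (Hdac6 0.14 and Sirt2 -0.13), and none of 11 gamma-tubulin ring genes, which nucleate microtubules, did (Tubgcp4 0.38, adjusted p = 0.0877, and Tubg1 -0.22).

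Of 22 tested genes of microtubule-binding proteins, 6 rose and 1 fell, with a median log2 fold change of 0.15. The gene that fell was Map7 (-0.38, adjusted p = 0.0486), picked out after its values were seen. These 7 of 22 are near the 25.4% of all tested genes. Map1a, which stabilises microtubules, rose by 0.72 on the log2 scale (adjusted p = 0.0134), the plus-end protein Mapre1 by 0.39 (adjusted p = 0.0222), the polymerase Ckap5 by 0.41 (adjusted p = 0.0254) and Mtus1 by 0.35 (adjusted p = 0.0212). Of 12 tested genes that destabilise or sever microtubules, 3 rose and 1 fell, against 11.9% higher and 13.5% lower among all tested genes. Stmn1, which binds free tubulin dimers, was at 25.5, 17.0, 17.2 and 24.6 FPKM in the TAC libraries, against 6.66, 7.19, 9.51 and 9.48 FPKM in the sham libraries (wild type first in both), and rose by 1.30 (SE 0.16, adjusted p = 0.00401). The mitotic depolymerase Kif2c was at 0.796 to 1.43 FPKM in TAC and 0.0161 to 0.210 FPKM in sham libraries (adjusted p = 0.00407), and Fignl1 at 0.621 to 1.40 FPKM in TAC and 0.0437 to 0.324 FPKM in sham (adjusted p = 0.00703), on as few as 1 and 3 reads. All 3 separated the surgeries, beside the rise of 10 of 10 markers of dividing cells given above. A link between them was not tested. Katna1, the catalytic subunit of katanin, fell by 0.42 (adjusted p = 0.0425).

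Of 14 tested motor genes, 2 rose and 1 fell, no larger a share than the 25.4% that passed among all tested genes. Kif5b, the heavy chain of kinesin-1, was at 34.7, 29.7, 26.0 and 16.4 FPKM in the TAC libraries, against 15.3, 16.1, 14.1 and 14.3 FPKM in the sham libraries (wild type first in both), and rose by 0.76 (adjusted p = 0.0113). The dynein intermediate chain gene Dync1i2 rose by 0.30 (adjusted p = 0.0341) and the dynactin gene Dctn3 fell by 0.40 (adjusted p = 0.0322). Dync1li1 passed in wild type alone (0.71, adjusted p = 0.0448), with no test passed for the difference between genotypes.

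**Figure D4:**
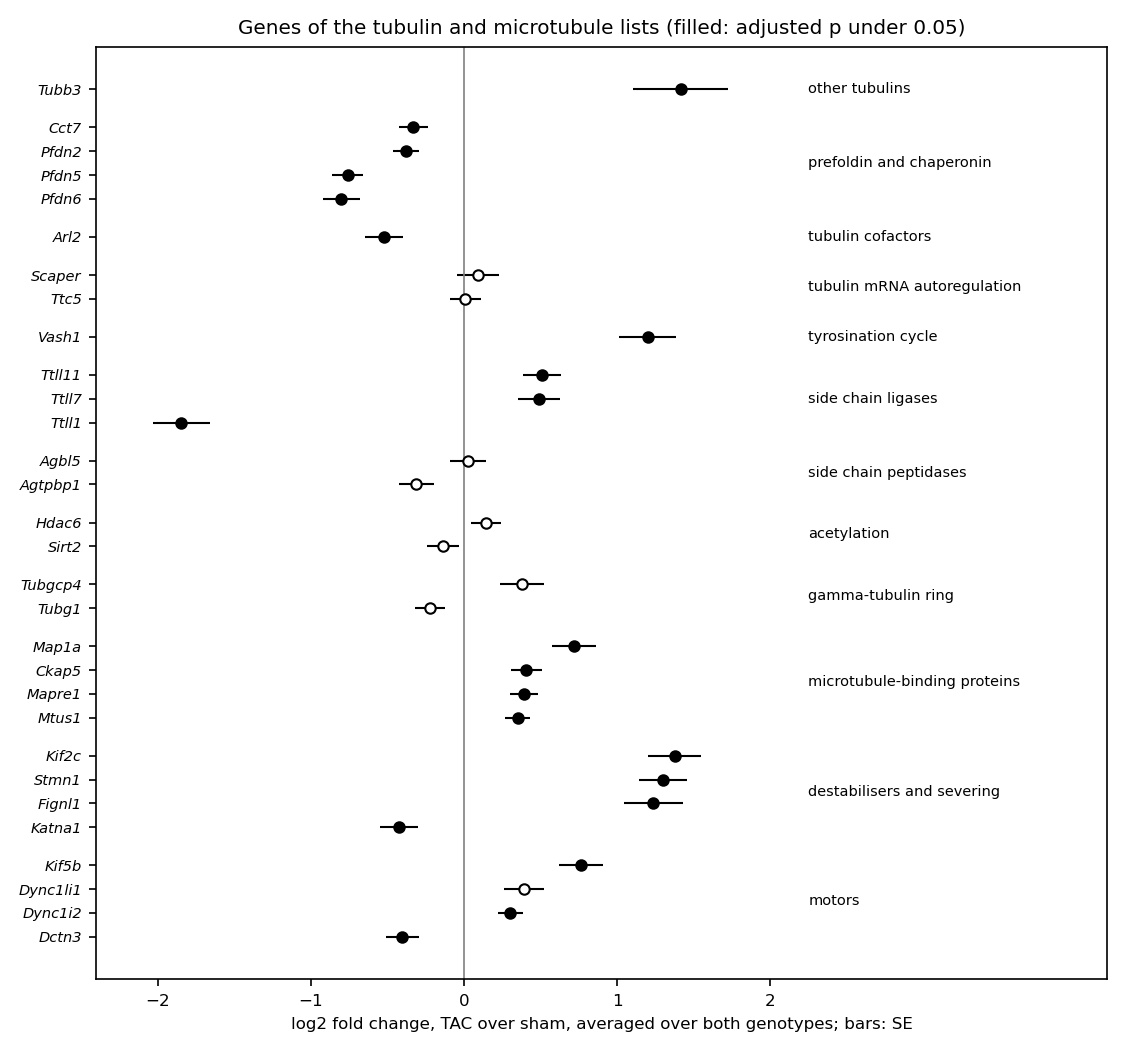
Log2 fold change of TAC over sham, averaged over both genotypes, with SE bars, for the named genes of the tubulin and microtubule lists, filled where the adjusted p was under 0.05. Ttll1 lies farthest to the left, at -1.84, and Tubb3, Kif2c, Stmn1, Fignl1 and Vash1 lie beyond 1 on the right.

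How far these pathway calls rest on single libraries differed. Pfdn5, Pfdn6, Vash1, Ttll1, Stmn1, Kif2c and Fignl1 passed in every alternative run, though Kif2c and Fignl1 were not tested under the stricter filter. Kif5b passed whichever single library was left out, but not without both wild-type TAC replicate 1 and wild-type sham replicate 1 (adjusted p = 0.0623). The calls of Arl2, Cct7, Ckap5, Dctn3, Dync1i2, Katna1, Mapre1, Mtus1, Pfdn2, Ttll7 and Ttll11 were also lost without those 2 libraries. Map1a lost its call without Piezo1-Cko sham replicate 1 (adjusted p = 0.0541). Pfdn2, Cct7, Ckap5, Dctn3, Dync1i2, Katna1, Mapre1, Mtus1, Ttll7 and Ttll11 lost theirs without wild-type TAC replicate 1, Piezo1-Cko TAC replicate 1 or either Piezo1-Cko sham library (adjusted p up to 0.138), as did Arl2 except for Piezo1-Cko TAC replicate 1. Arl2, Cct7, Dync1i2, Katna1, Ttll7 and Ttll11 also lost it without wild-type sham replicate 1. Without wild-type sham replicate 2 the calls were lost for Cct7, Ckap5, Dctn3, Dync1i2, Katna1, Mtus1, Pfdn2 and Ttll7. Those lost without wild-type TAC replicate 2 were Arl2, Dync1i2 and Ttll7, and those lost without Piezo1-Cko TAC replicate 2 were Cct7, Dync1i2 and Katna1. Under scaling to total reads Arl2, Cct7, Dctn3, Katna1 and Pfdn2 did not pass. Part of Pfdn2 (27.6% of its exon bases) overlaps Klhdc9 on the opposite strand, which lay at 0 to 0.223 FPKM, and 11.8% of those of Pfdn5 are shared with Myg1, at 4.92 to 7.65 FPKM.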

How the data were processed

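RNA was extracted from mouse hearts with Trizol, and libraries were made from 1 microgram of total RNA with an NEBNext Ultra kit, per the labels' protocols. The submitters' processing notes list featureCounts 1.5.0-p3 and Bowtie 0.12.2, beside CASAVA 1.8, and give mm10 and mm8 as builds. Filters, strand setting and treatment of reads with several matches are not given in the sources used here.

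The authors deposited 1 table of FPKM values per gene and library. Multiplied by gene length, 100% of values above 0 came within 0.01 of a whole number of reads, which gave the reads per gene. The steps imply library sizes of 0.886 to 1.10 times the total reads. Mitochondrial genes took 17.6% to 24.4% of reads.

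From these values, log2(FPKM + 0.5) was fitted in limma 3.58.1 (R 4.3.3) with 1 term per group, an intensity trend and robust moderation, on all 8 libraries (4 residual degrees of freedom). Tested genes had at least 0.5 FPKM and 10 reads in at least 2 libraries. The steps were tested on simulated data. The fit was repeated on protein-coding genes alone, with pseudocounts of 0.1 and 1 FPKM, with other filters, with limma-voom on recovered reads, with median-of-ratios scaling, with a replicate block, on the 4 libraries compared, without each library and without 2 together. Scaling to total reads, all or outside mitochondrial genes, was added after seeing the data. Of the table's genes, 54409 were in GENCODE M21 (GRCm38), 53499 of them with the same start and end, among them 9 of the 10 tubulin genes. Sequences were read with Biopython 1.88.

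The tubulin genes and the pathway and marker lists were chosen with earlier results of these data known. Named pathway genes are, per list, up to 4 that passed in a TAC comparison, by smallest p in the average, or up to 2 where none passed.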

Additional observations from a re-analysis of the deposited data

How the results depend on the processing

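The counts of tubulin genes that passed depended on the fit. In wild type 3 genes passed, and 0 did when the filter was dropped, 0 with only the 4 libraries compared, and 0 without both wild-type sham replicate 1 and wild-type TAC replicate 1; limma-voom and both scalings to total reads gave 4, adding Tuba1c, and leaving out 1 library gave 0 to 3. In Piezo1-Cko 0 passed, but 3 with limma-voom, 3 with protein-coding genes alone, and 4 under each scaling to total reads (all, or outside mitochondrial genes); leaving out 1 library gave 0 to 4. In the average 5 passed, and 3 without both libraries; leaving out 1 gave 3 to 8, the 8 without wild-type TAC replicate 2, where Tuba4a, Tuba8 and Tubb4b also passed as lower. With no filter the averaged call of Tuba1c was lost (limma adjusted p = 0.0593). For both genotype comparisons and the interaction the count was 0 in every alternative run. The 8 shares that did not overlap were 8 or 9 with 1 library left out, and 7 as shares of reads. Over all genes, the 1842 calls in wild type were 247 with no filter and 272 with 4 libraries. The 208 in Piezo1-Cko were 0 with no filter and 513 under total-read scaling. Those fits hold more genes, fewer libraries or another scaling, and the cause of the changed counts was not tested.

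Signs turned in values that had not passed. Their lowest and highest values with 1 library left out were, in wild type, -0.0838 and 0.42 for Tuba1a, -0.88 and 0.0236 for Tuba8 and -0.61 and 0.0162 for Tubb4b. In the average they were -0.0129 and 0.0668 for Agbl5, -0.0219 and 0.203 for Scaper and -0.0775 and 0.0978 for Ttc5. Without both libraries Tuba1a was at -0.0292 and Tuba8 at 0.0892 in wild type, and Ttc5 at -0.0842 in the average. Scaled to total recovered reads, Tubb4b was at 0.0236 in Piezo1-Cko and Sirt2 at 0.0804 in the average, and outside mitochondrial genes Sirt2 was at 0.0275. None of these values passed in the setting that turned its sign.

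Replicate numbers do not pair the samples by the labels, and deviations of same-numbered libraries correlated at 0.0256 to 0.248 over the 6 pairs of groups. With the replicate block 3, 0 and 5 tubulin genes passed in wild type, Piezo1-Cko and the average, and 3748 genes in all in the average, against 3537.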

Other observations

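Pairs of tubulin genes were described over the 8 libraries by Pearson correlations of log2(FPKM + 0.5), where groups of libraries share their surgery and a library's scaling enters both genes. Tuba1b and Tubb6 had r = 0.969, Tubb5 and Tubb6 0.962, and Tubb2b and Tubb6 0.943. Tuba4a and Tubb4b, the alpha and beta genes that led in sham hearts, had 0.926, a value that rests on wild-type TAC replicate 1, the lowest library in both, and was 0.503 over the other 7. Tuba4a and Tuba8 had 0.858, and 0.924 over the other 7. The lowest value was that of Tuba8 and Tubb2b, at -0.768.

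Outside the tubulins, the genes most like Tubb5 in this measure were Brip1os (0.991), Pclaf (0.990), which encodes a replication clamp-binding protein of dividing cells, and the ubiquitin ligase gene Rad18 (0.989). Those most like Tuba1b were Msr1 (0.990), a macrophage scavenger receptor, Il4ra (0.988) and Myo1f (0.987), a myosin of leukocytes. Those most like Tubb6 were Cd300ld (0.993), Lrrc59 (0.990) and Lair1 (0.988). For Tuba1c they were Nsd3 (0.989), Usp6nl (0.986) and Hip1 (0.983), and for Tubb2b Tram2 (0.990), Acsl4 (0.989) and Rab3gap2 (0.988). Those most like Tuba4a were Afg1l (0.984), Phyhip (0.976) and Ebp (0.953). They are the 3 highest among tested genes other than predicted genes and pseudogenes, so high values were selected, over n = 8 libraries.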
